A study of Mus musculus with 3 samples.

Results

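The genes described are 10 of the 32285 mouse genes counted in a single-cell RNA-sequencing study of the aged mouse thymus, chosen by name for their roles where blood-borne progenitors meet the vessel wall: the selectins Selp and Sele, the immunoglobulin-type ligands Vcam1, Icam1 and Icam2, the chemokine receptor Ackr1, the storage granule protein Vwf, the diaphragm protein Plvap, and the sialomucins Podxl and Cd34. All 10 were found by symbol, and all passed the filter on low counts in each comparison of classes and each division of ECs below. The study isolated CD45- stroma from untreated 20-month-old C57BL/6 mice, and this series holds 1 library each of Foxn1 lineage trace (Foxn1Lin) female mice, Foxn1Lin male mice and wild-type male mice. In Foxn1Lin mice a reporter marks cells with a history of Foxn1 expression, that is, the epithelium rather than the vessels. Per the labels, 10 to 15 thymi were pooled for a library, so animals cannot be told apart and no comparison between libraries has a replicate. The protocol text names female mice for all 3 libraries and the wild-type library is also labelled CD45-PECAM1+, although TECs, FBs and ECs were all present in it. Endothelial cells (ECs) were 2035 of 8616 called barcodes in the female library, 794 of 3583 in the Foxn1Lin male library and 845 of 5478 in the wild-type library.

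The adult thymus holds no self-renewing T cell precursor of its own and is fed by progenitors that leave the blood through endothelium. Entry is a sequence: selectins on the vessel catch a glycosylated ligand on the rolling cell, chemokines held at the vessel surface activate its integrins, and integrins then bind immunoglobulin-type ligands such as VCAM1 and ICAM1 before the cell crosses. P-selectin and von Willebrand factor are stored together in Weibel-Palade bodies, the secretory granules of endothelium, and venules are the usual site of this traffic.

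The selectin genes lie side by side on chromosome 1, and the 200 bases before the transcription start are shown for Selp and Sele, which were detected in the same ECs, and for Icam1 and Cd34, which were not tied to them in the same way. The sequences are from RefSeq (GRCm38.p6), 5′ to 3′ on the strand of the gene, at chr1:164115064-164115263 for Selp, chr1:164048034-164048233 for Sele, chr9:21015740-21015939 for Icam1 and chr1:194938621-194938820 for Cd34 (all on the plus strand). Capitals mark the core GGAAG of ETS factors, a family with many endothelial members, on either strand.
Selp: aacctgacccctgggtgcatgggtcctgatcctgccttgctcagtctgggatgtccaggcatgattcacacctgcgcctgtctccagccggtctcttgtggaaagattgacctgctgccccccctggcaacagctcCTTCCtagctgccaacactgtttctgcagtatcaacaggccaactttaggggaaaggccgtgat
Sele: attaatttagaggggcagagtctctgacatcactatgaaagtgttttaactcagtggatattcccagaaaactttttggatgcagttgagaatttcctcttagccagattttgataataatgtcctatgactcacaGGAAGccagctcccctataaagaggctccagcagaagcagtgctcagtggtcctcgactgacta
Icam1: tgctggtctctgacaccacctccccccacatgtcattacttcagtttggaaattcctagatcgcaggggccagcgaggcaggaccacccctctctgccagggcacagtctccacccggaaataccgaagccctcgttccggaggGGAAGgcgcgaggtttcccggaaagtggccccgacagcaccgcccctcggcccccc
Cd34: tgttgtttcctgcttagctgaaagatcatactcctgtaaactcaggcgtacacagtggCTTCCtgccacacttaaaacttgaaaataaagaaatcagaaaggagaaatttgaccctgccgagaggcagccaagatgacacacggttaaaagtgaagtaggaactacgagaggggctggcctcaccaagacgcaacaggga
Each window held the ETS core 1 time, as did 56.4% of all 27025 promoter windows of this length at least once. The GATA core AGATAA (in 7.98% of all windows) and the NF-kB consensus (in 3.05%) had no match on either strand in these windows. In the GENCODE annotation of GRCm38, Selp spans chr1:164115264-164150026 and Sele chr1:164048234-164057677. Ackr1 overlaps Cadm3 on the same strand, so its counts are uncertain to that extent.

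Depth and free RNA differed between the libraries. ECs had a median of 3346 unique molecular identifiers (UMIs) in the Foxn1Lin female library, 6877.5 in the Foxn1Lin male library and 6597 in the wild-type library, so shares of cells are given after each barcode was thinned to 2000 UMIs, which kept 1603, 753 and 792 ECs. Of all UMIs, 26.5% lay outside called barcodes in the female library, 12.9% in the Foxn1Lin male library and 9.46% in the wild-type library. The 10 EC markers (Pecam1, Cdh5, Kdr and others) summed to 7829 to 9120 counts per 1000000 UMIs (CPM) in ECs of the 3 libraries, to 64.5 to 224 in TECs, 68.4 to 197 in FBs and 187 to 1282 in mural cells. The highest value outside ECs was in mural cells of the female library. Pecam1 and Cdh5 define the EC gate, so their part of the EC sum was set by that rule. RNA of other cells also differed in ECs: the 5 erythroid markers summed to 4151 CPM in the female library against 192 and 36.3 in the Foxn1Lin male and the wild type, the 8 FB markers to 677 CPM against 47.8 and 120, the 10 TEC markers to 600.2 CPM against 134 and 254, and the 10 hematopoietic markers to 153 CPM against 66.0 and 209. The EC gate allowed no Pdgfra or Epcam UMI, so these genes add nothing to the FB and TEC marker sums of ECs. Whether the differences between libraries had a part in the results was not tested, and libraries shared at most 14 barcodes.

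Across the 4 stromal classes, all 10 genes were higher in ECs than in thymic epithelial cells (TECs) and than in mural cells (the pericytes and smooth muscle around vessels), and 8 of 10 were higher than in fibroblasts (FBs). For comparison, 26.2% of the 16487 genes tested were higher and 30.9% lower in ECs than in TECs, 21.4% higher and 21.4% lower than in FBs, and 19.6% higher and 19.8% lower than in mural cells. The median log2 fold change of the 10 genes was 6.71 against TECs, 4.14 against FBs and 4.72 against mural cells, beside -0.08, 0.05 and 0.01 over all genes. Vcam1 and Cd34 did not pass the test against FBs. The test was on counts summed per class and library, with the library as a block and n = 3 libraries.

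**Figure D1:**
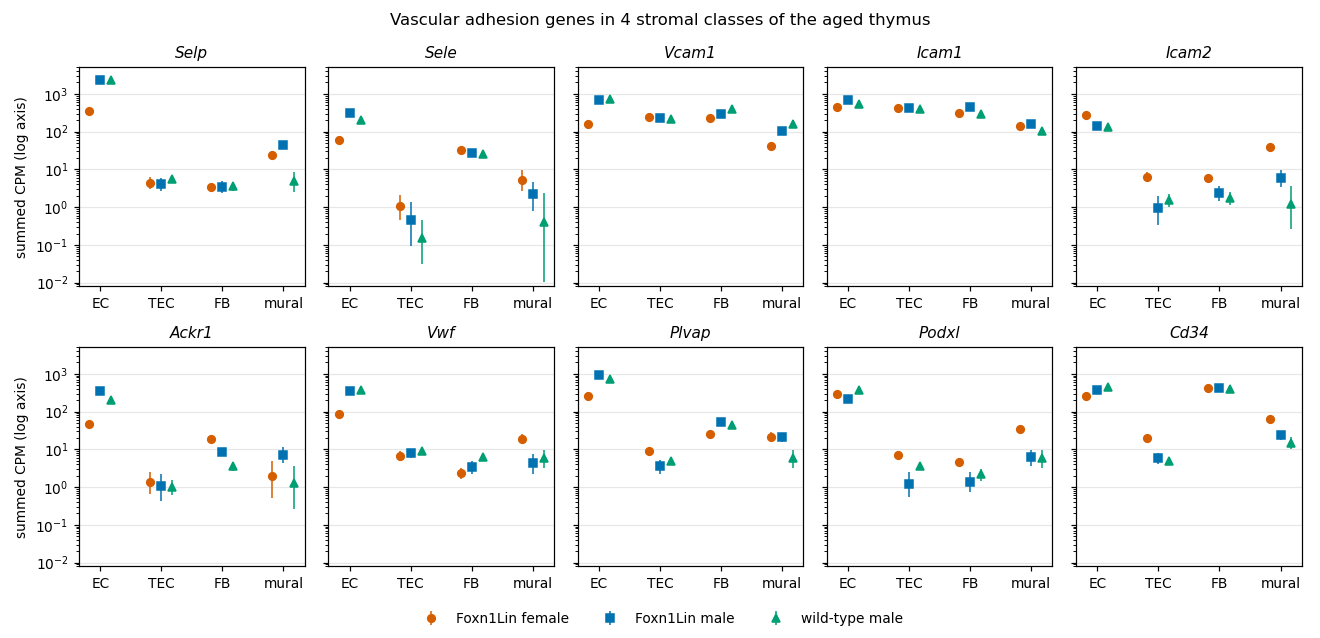
Summed CPM of each gene (log axis) in ECs, TECs, FBs and mural cells, with a point for each library and exact Poisson 95% intervals that cover counting error only. Selp, Icam2, Vwf and Podxl stand above the other classes in ECs of every library, while Vcam1 and Icam1 are at 100 CPM or more in TECs and FBs of every library and Cd34 in FBs lies near its EC level.

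Selp encodes P-selectin, the receptor for PSGL-1 on progenitors. It was at 348 CPM in ECs of the Foxn1Lin female library, 2271 in the Foxn1Lin male library and 2281 in the wild-type library. TECs had 4.42, 4.18 and 5.64 CPM in the same order and FBs 3.36, 3.49 and 3.60. Mural cells had 23.9, 43.4 and 4.99 CPM, and the lowest EC level was above every value in another class. The log2 fold change of ECs was 8.60 ± 0.91 (SE, n = 3 libraries, adjusted p = 6.34e-05) against TECs and 8.72 ± 0.92 (adjusted p = 8.86e-05) against FBs. Droplets without a called cell had 80.7, 384 and 219 CPM, so the Selp level of TECs and FBs was below that of free RNA.

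Sele encodes E-selectin, which endothelium makes in response to inflammatory cytokines. ECs had 59.5, 308 and 197 CPM of it in the Foxn1Lin female, Foxn1Lin male and wild-type libraries. TECs were near 0, at 1.07, 0.465 and 0.154 CPM, but FBs had 32.0, 27.8 and 25.4 CPM. Droplets without a called cell had 17.6, 42.4 and 20.4 CPM of Sele, so the FB level was above that of free RNA in the female and wild-type libraries and below it in the Foxn1Lin male. The difference between ECs and FBs was 2.68 ± 0.59 on the log2 scale (adjusted p = 0.00519), and FBs were themselves above TECs, with a TEC against FB value of -6.24 ± 0.83 (adjusted p = 0.000231). A Sele UMI was found in 116 of 1876, 65 of 863 and 112 of 1707 FBs. At 2000 UMIs per barcode, the share was 3.26%, 3.49% and 3.38% of FBs. Of the Sele-positive FBs before thinning, 25.9%, 7.69% and 9.82% also held a Pecam1 or Cdh5 UMI, beside 20.3%, 6.89% and 5.52% of Sele-negative FBs, and 5, 3 and 4 of them held a Selp UMI. The part of free RNA or of EC RNA in the Sele level of FBs was not tested. Without the Foxn1Lin male library the EC against FB value was 2.16 (adjusted p = 0.112) and without the wild type 2.37 (adjusted p = 0.0733).

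The integrin ligands were of 2 kinds. Icam2, the ligand of LFA-1 that resting endothelium displays, followed Selp in class: ECs had 270.5, 140.5 and 129 CPM, TECs 6.44, 0.930 and 1.54, and FBs 5.90, 2.33 and 1.77. Its log2 fold change was 6.59 ± 0.53 against TECs and 6.01 ± 0.51 against FBs (adjusted p = 1.51e-05 and 3.22e-05).
Icam1, the inducible LFA-1 ligand, had UMIs in every class: 450.4, 706 and 549 CPM in ECs, 411, 411 and 390 in TECs, 308, 436 and 298 in FBs, and 141, 160 and 104 in mural cells. Droplets without a called cell had 297, 449 and 478 CPM of Icam1. ECs were above that level in every library, TECs and FBs in the female library only, and mural cells in none. The differences were correspondingly small, 0.85 ± 0.16 against TECs (adjusted p = 0.00162), 0.76 ± 0.16 against FBs (adjusted p = 0.00393) and 2.14 ± 0.17 against mural cells (adjusted p = 3.44e-05). The scaling of the fit adds 0.38 on the log2 scale to every EC against TEC value relative to CPM. Against FBs the Icam1 difference was 0.71 without the Foxn1Lin male library (adjusted p = 0.0573) and 0.59 without the wild type (adjusted p = 0.0966).

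Vcam1, the ligand of integrin VLA-4, also had UMIs in every class. ECs had 162, 688 and 732 CPM, TECs 240, 234 and 220.5, and FBs 224, 292 and 405. Levels in mural cells were lower, at 42.6, 106 and 155 CPM. Droplets without a called cell had 172, 302 and 441 CPM of Vcam1, above ECs of the female library, TECs and FBs of both male libraries and mural cells of all 3. In both male libraries ECs were the highest class, and in the female library they were below TECs and FBs. The EC against TEC value of 1.29 ± 0.42 passed (adjusted p = 0.0268, higher in 2 of 3 libraries), and the EC against FB value of 0.68 ± 0.41 did not (adjusted p = 0.216). Leaving out the Foxn1Lin male library gave 0.88 against TECs (adjusted p = 0.271), leaving out the wild type gave 0.87 (adjusted p = 0.238), and a fit of these 2 classes alone 1.36 (adjusted p = 0.0910). Without the female library the FB contrast passed, at 1.12 (adjusted p = 0.00236). Against mural cells the value was 2.40 ± 0.43 (adjusted p = 0.00208), or 2.16 without the Foxn1Lin male library (adjusted p = 0.0502).

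Ackr1, an atypical receptor that binds and presents inflammatory chemokines on venules, was at 47.9, 341 and 201 CPM in ECs and at 1.34, 1.08 and 1.03 in TECs. FBs had 18.4, 8.27 and 3.60 CPM, below the 27.1, 115 and 26.5 CPM of droplets without a called cell. ECs exceeded FBs by 4.27 ± 0.83 on the log2 scale (adjusted p = 0.00270), a call that was lost without the Foxn1Lin male library (3.57, adjusted p = 0.0591) or the wild type (3.30, adjusted p = 0.0616). Vwf, the platelet-binding cargo of Weibel-Palade bodies, was at 88.1, 350.5 and 364 CPM in ECs and at 19.1 or less in every other class and library. Its log2 fold change was 5.38 ± 0.65 against TECs and 6.06 ± 0.67 against FBs (adjusted p = 0.000131 and 0.000118). Since platelets also contain P-selectin and von Willebrand factor, their markers were read in ECs: Pf4 was at 6.24, 5.34 and 1.84 CPM, and the 6 platelet markers summed to 19.3, 14.4 and 6.81 CPM.

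Plvap forms the diaphragms of fenestrae and caveolae, through which leukocytes can also pass. ECs had 262, 935 and 729 CPM, FBs 24.96, 52.9 and 44.0, and TECs 8.85, 3.56 and 5.02. Droplets without a called cell had 69.2, 210.0 and 121 CPM, above FBs and TECs in every library. The difference was 7.05 ± 0.69 against TECs and 4.01 ± 0.58 against FBs (adjusted p = 4.15e-05 and 0.000527). Podxl, a sialomucin of the EC surface, was at 297, 215 and 372.5 CPM in ECs and at 1.24 to 6.97 CPM in TECs and FBs of the 3 libraries. Cd34, its relative and a marker of progenitors and vessels alike, was at 264.5, 371 and 461 CPM in ECs and at 431, 414 and 403 CPM in FBs. ECs and FBs were not told apart for Cd34 (-0.05 ± 0.48, adjusted p = 0.942), with FBs higher in 2 libraries and ECs in the wild type, whereas TECs had 20.4, 5.73 and 4.97 CPM.

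Among the classes outside the endothelium, 0 of the 10 genes were higher in TECs than in FBs and 4 were lower (Sele, Ackr1, Plvap and Cd34), beside 29.9% and 26.2% of all genes by edgeR. Against mural cells, 1 gene was higher in TECs (Icam1; 25.9% of all genes) and 5 were lower (24% of all genes). FBs were higher than mural cells for 4 (Sele, Vcam1, Icam1 and Cd34; 14.7% of all genes) and lower for 3 (Selp, Icam2 and Podxl; 15.3% of all genes). Mural cells carried more EC marker RNA than TECs or FBs in every library. With TEC, FB and mural barcodes holding a Pecam1 or Cdh5 UMI left out, TEC against mural calls were 2 instead of 6. Over all genes, the TEC against mural calls were then 7982 instead of 8232, and the FB against mural calls 4912 instead of 4943. In FBs against mural cells, the values of Selp, Icam2 and Podxl then did not pass, at -0.28, 0.14 and -0.97 (adjusted p = 0.784, 0.858 and 0.254), and the Icam2 value had turned direction from -1.82. Without the Foxn1Lin male library the number of TEC against mural calls was 1, and that of FB against mural calls 2 instead of 7. Calls over all genes also fell, from 8232 to 4823 for TECs and from 4943 to 2172 for FBs.

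The genes that work with these 10 were read from lists, beside the shares of all genes given above (26.2% higher and 30.9% lower in ECs than in TECs, 21.4% and 21.4% against FBs, and 19.6% and 19.8% against mural cells). Of 14 junction and diapedesis genes 10 were higher and 2 lower in ECs than in TECs, and 9 and 4 against FBs, with Jam2 at 319, 373 and 306 CPM in ECs against 8.71, 2.17 and 2.77 in TECs (6.90 ± 0.55, adjusted p = 1.50e-05). Of 12 chemokines and scavengers 4 were higher and 6 lower in ECs than in TECs. Ccl25, which draws progenitors carrying CCR9, was at 53.6, 12.0 and 21.3 CPM in ECs against 1198, 165 and 746 in TECs (-4.16 ± 0.37, adjusted p = 2.65e-05). Cxcl12, the CXCR4 ligand, was higher in ECs than in FBs (2.23 ± 0.23, adjusted p = 8.07e-05), as was Kitl, the KIT ligand (2.34 ± 0.18, adjusted p = 2.06e-05).

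The same shares of all genes stand beside the lists that follow (26.2% higher and 30.9% lower against TECs, 21.4% and 21.4% against FBs, 19.6% and 19.8% against mural cells). Of 10 capture and sulfation genes tested, 5 were higher and 1 lower in ECs than in TECs, and 7 were higher than in FBs and than in mural cells, with 0 lower by edgeR. Madcam1, the addressin of gut venules, was the gene that was lower, at 0.780, 0 and 0.142 CPM in ECs against 22.4, 17.2 and 9.43 in TECs (-5.28 ± 0.70, adjusted p = 0.000204). Of 8 Weibel-Palade body genes tested other than Selp and Vwf, 3 were higher and 2 lower against TECs and 4 and 2 against FBs. Angpt2 was higher in ECs than in FBs (5.18 ± 0.63, adjusted p = 0.000196), while Cd63, which lysosomes of all cells also carry, was lower (-3.50 ± 0.14, adjusted p = 2.30e-06). Of 7 sialomucin adaptors 5 were higher and 2 lower against TECs, with Slc9a3r2 (NHERF2), which binds podocalyxin, higher by 6.19 ± 0.39 (adjusted p = 5.79e-06).

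Within ECs most of the genes were detected in a minority of cells. At 2000 UMIs per barcode, a Selp UMI was found in 6.74% of ECs (95% interval 5.56 to 8.08) in the Foxn1Lin female library, 31.1% (27.8 to 34.5) in the Foxn1Lin male library and 30.1% (26.9 to 33.4) in the wild-type library. Without thinning, the shares were 7.81%, 34.1% and 32.4%. In TECs, where Selp was below the level of free RNA and which had median depths of 11683, 12363 and 16882.5 UMIs before thinning, the thinned shares were 1.43%, 0.484% and 0.799%. Sele was found in 2.62%, 16.6% and 14.4% of ECs, Ackr1 in 2.74%, 18.9% and 15.4%, and Vwf in 7.24%, 25.5% and 26.4%. Vcam1 (11.2%, 38.1% and 43.1%) and Plvap (18.8%, 44.0% and 46.5%) were found more widely, again in the smallest share in the female library.

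Icam1 and Cd34 were also found in the smallest share in the female library, in 42.7%, 54.6% and 49.2% of ECs for Icam1 and 33.0%, 49.3% and 53.4% for Cd34. Icam2 was in more ECs of the female library, 39.5% (37.1 to 41.9), than of the male libraries, 24.3% (21.3 to 27.5) and 23.1% (20.2 to 26.2). Podxl was in 42.5%, 30.9% and 45.1%, with the Foxn1Lin male library lowest.

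**Figure D2:**
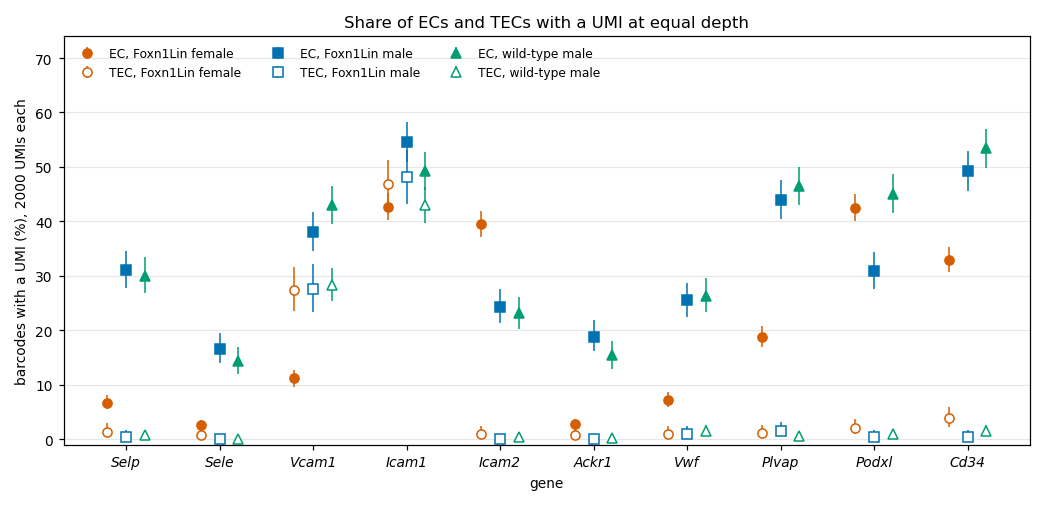
Share of barcodes with at least 1 UMI of each gene after thinning to 2000 UMIs, for ECs (filled) and TECs (open) of each library, with Clopper-Pearson 95% intervals that cover counting error only. The female library is lowest for Selp, Sele, Ackr1, Vwf, Vcam1, Plvap, Icam1 and Cd34 and highest for Icam2, and Icam1 and Vcam1 are the only genes above 5% in TECs.

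Where a gene was detected, its level per cell separated Selp from the rest. Selp-positive ECs held a mean of 5.74, 10.3 and 12.5 Selp UMIs of the 2000 (median 3, 8 and 9, up to 26, 43 and 51). Sele-positive ECs held 2.88, 2.67 and 2.27 Sele UMIs, Vcam1-positive ECs 2.28, 3.202 and 3.01 Vcam1 UMIs, and Plvap-positive ECs 2.29, 3.34 and 2.75 Plvap UMIs. Icam2 was sparse wherever it was found, at 1.43, 1.25 and 1.16 UMIs. So the low Selp level of the female library came with both fewer positive ECs and fewer UMIs in each. Of the 10 genes, an EC of the female library had a median of 2 detected and those of the male libraries 3, and 5 or more were detected in 5.05%, 29.0% and 28.8% of ECs.

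Detection of the genes was not independent. For each of the 45 pairs, the number of ECs with both genes was set against the number expected from the separate shares in that library. The ratio exceeded 1.5 in all 3 libraries for 14 pairs, which were all the pairs within Selp, Sele, Ackr1, Vwf, Vcam1 and Plvap but Vcam1 with Plvap (1.31 to 2.08). In 7 of the 14, fewer than 5 ECs with both were expected in the female library, and no ratio is given for it there. Selp and Sele were found together in 38, 119 and 108 ECs, in the male libraries 3.06 and 3.15 times the number expected. A Sele UMI was in 35.2%, 50.9% and 45.4% of Selp-positive ECs and in 0.268%, 1.16% and 1.08% of Selp-negative ones. Seen from Sele, the overlap was nearly complete, since 90.5%, 95.2% and 94.7% of Sele-positive ECs had a Selp UMI.

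Ackr1 and Vwf were also found more often in Selp-positive ECs. Ackr1 was in 30.6%, 58.5% and 48.7% of Selp-positive ECs against 0.736%, 0.963% and 1.08% of Selp-negative ones, and 75.0%, 96.5% and 95.1% of Ackr1-positive ECs had a Selp UMI. Vwf, which shares its granule with P-selectin, was in 51.9%, 63.7% and 60.9% of Selp-positive ECs and 4.01%, 8.29% and 11.6% of the others, a ratio of 7.17, 2.50 and 2.31. Vwf was less nested than Sele or Ackr1, in that 48.3%, 77.6% and 69.4% of Vwf-positive ECs had a Selp UMI.

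Podxl was detected with Selp, Sele and Ackr1 in fewer ECs than its separate share gives. The number of ECs with both Podxl and Selp was 0.762, 0.497 and 0.317 times that expected, with both Podxl and Ackr1 0.588, 0.455 and 0.236 times, and with both Podxl and Sele 0.616, 0.543 and 0.292 times. The last 2 pairs lay under 1/1.5 in every library, but without thinning 0 pairs did, and 1 did at 1000 UMIs or with literal gates. With Plvap the ratio was 1.16, 0.801 and 0.802, above 1 in the female library and below it in the males. The pairs of Cd34 with Icam1 and with Icam2 were closer to independence, at 0.960 to 1.02 and 0.996 to 1.02 over the libraries. Cells of a library share its RNA background and these ratios have no replicate beyond the 3 libraries.

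**Figure D3:**
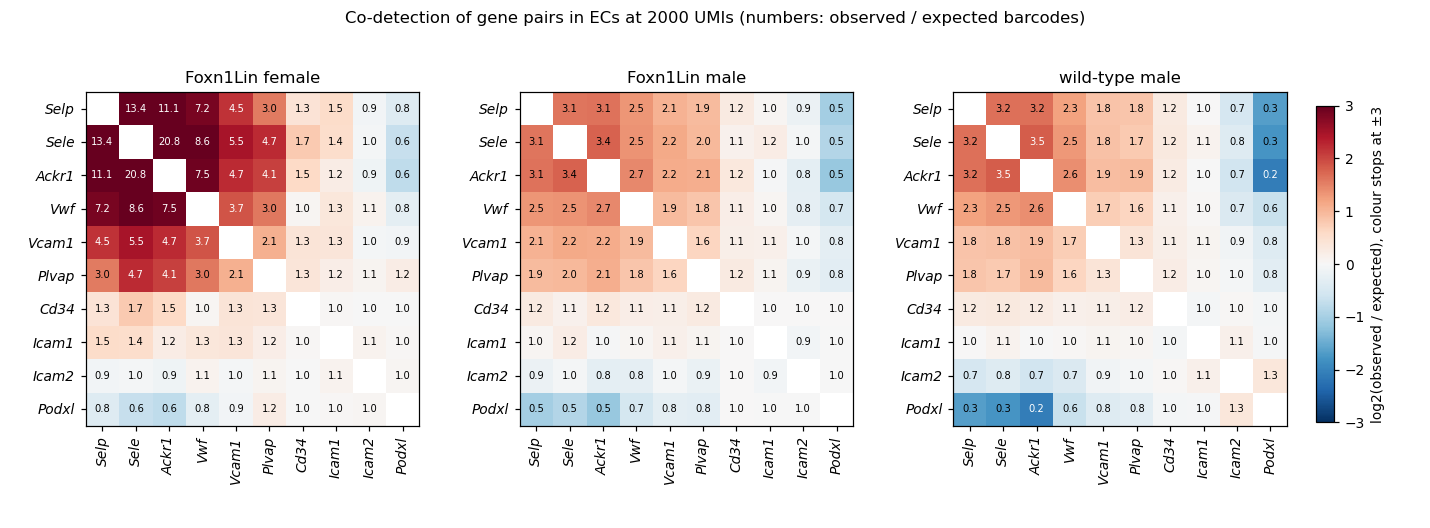
Observed over expected number of ECs with both genes of a pair at 2000 UMIs per barcode, for each library (colour, log2 scale; numbers, the ratio). The block of Selp, Sele, Ackr1, Vwf, Vcam1 and Plvap is above 1 throughout, and Podxl is below 1 with Selp, Sele, Ackr1 and Vwf.

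To compare levels rather than detection, ECs were divided by whether they held a UMI of each gene in turn and the summed counts of the positive and negative ECs were tested within libraries (n = 3). Positive cells were also deeper, with a cause that was not tested: in the 3 libraries, Selp-positive ECs had median depths of 5192, 10456 and 9836 UMIs and Selp-negative ECs 3253.5, 5754 and 5432. Each division was therefore repeated on ECs thinned to 2000 UMIs.

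Between Selp-positive and Selp-negative ECs, 6 of the other 9 genes were higher and 1 was lower, beside 13.2% and 9.64% of the 11574 genes tested. At equal depth these counts were again 6 and 1, beside 11.9% and 8.67%. Ackr1 was at 366, 745 and 465 CPM in Selp-positive ECs and 2.67, 2.65 and 0.999 CPM in Selp-negative ones, a log2 fold change of 7.97 ± 0.30 (adjusted p = 2.46e-05), or 6.74 at equal depth. Sele was at 426, 673 and 450 CPM against 7.38, 1.59 and 5.24 CPM (6.82 ± 0.42, adjusted p = 6.05e-05, or 6.12 at equal depth). Between libraries these levels were closer in Selp-positive ECs than over all ECs, where the female library stood apart. Vwf followed with 534, 689 and 711 CPM against 24.7, 67.3 and 99.1 (3.73 ± 0.26, adjusted p = 9.80e-05, or 3.54 at equal depth).

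Vcam1 was at 663, 1204 and 1218 CPM in Selp-positive ECs against 91.1, 257 and 363 CPM in the others (2.47 ± 0.18, adjusted p = 0.000135, or 2.56 at equal depth). Plvap was at 890, 1598 and 1231 CPM against 173, 381 and 347 (2.29 ± 0.13, adjusted p = 4.81e-05, or 2.18 at equal depth). Cd34 differed less, at 364, 431 and 505 against 250.4, 321 and 427 CPM (0.60 ± 0.12, adjusted p = 0.00850, or 0.64 at equal depth). Podxl was the gene that was lower: 169, 101 and 124 CPM in Selp-positive ECs against 315, 311 and 561 (-1.38 ± 0.20, adjusted p = 0.00231, or -1.46 at equal depth). Icam1 (0.15 ± 0.13) and Icam2 (-0.28 ± 0.11) did not pass (adjusted p = 0.466 and 0.116), nor did they at equal depth (0.20 and -0.29).

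Other divisions were read in the same way, and differences between divisions were not tested. Sele-positive ECs had 3574, 5678 and 6649 CPM of Selp against 44.1, 229 and 388 (5.19 ± 0.39, adjusted p = 7.57e-05, or 4.08 at equal depth), and Ackr1-positive ECs 3846, 5654 and 6148 against 77.2, 404 and 454 (4.55 ± 0.38, adjusted p = 0.000333, or 3.84 at equal depth). In both divisions 6 of the other genes were higher and 1, Podxl, lower, beside 13.7% and 11.5% of all genes for Sele and 12.8% and 10.4% for Ackr1. At equal depth the counts were the same, beside 10.7% and 6.66% for Sele and 9.45% and 7.33% for Ackr1. Dividing by Vwf gave 6 higher and 1 lower (11.4% and 6.69% of all genes), by Vcam1 6 and 1 (9.14% and 5.22%), and by Plvap 6 and 0 (9.04% and 6.12%). At equal depth the counts were 5 and 1 for Vwf (9.26% and 5.64%), 7 and 0 for Vcam1 (7.93% and 4.4%) and 6 and 0 for Plvap (7.63% and 4.59%).

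Podxl-positive ECs were lower in Selp, Sele, Ackr1, Vwf and Vcam1 (5 of 9, beside 5.34% of all genes) and higher in Icam1 (1 of 9, beside 3.31%). Selp was at 244, 1862 and 1499 CPM in them against 545, 3069 and 3914 CPM in Podxl-negative ECs (-1.07 ± 0.14, adjusted p = 0.0111). At equal depth the Selp difference was -1.63, 4 genes were lower (1.69% of all genes) and 0 higher (0.753%). Without the Foxn1Lin male library, the number of genes called in the Podxl division went from 6 to 0 of 9.

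The remaining divisions changed when depth was made equal. Icam1-positive ECs were higher in 7 of the other 9 genes (5.88% of all genes, with 3.15% lower) before thinning and in 2, Selp (0.65) and Vcam1 (0.56), at equal depth (2.22% of all genes, with 1.05% lower). Icam2-positive ECs were higher in 4 (6.56% of all genes, with 5.51% lower) before thinning and in 0 at equal depth (0.466%), where Selp was lower (-0.44; 1.04% of all genes were lower). Without the female library, or without the wild type, the Icam2 division had 0 calls of 9 before thinning. Cd34-positive ECs were higher in 6 (3.35% of all genes, with 2.65% lower), and in 6 at equal depth (1.79%, with 1.34% lower), but with smaller values: Selp went from 2.47 to 0.65 and Ackr1 from 3.23 to 0.74. Without the library as a block, edgeR called 0 of 9 genes in the Icam1, Icam2, Podxl and Cd34 divisions, and 0 of all genes tested.

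**Figure D4:**
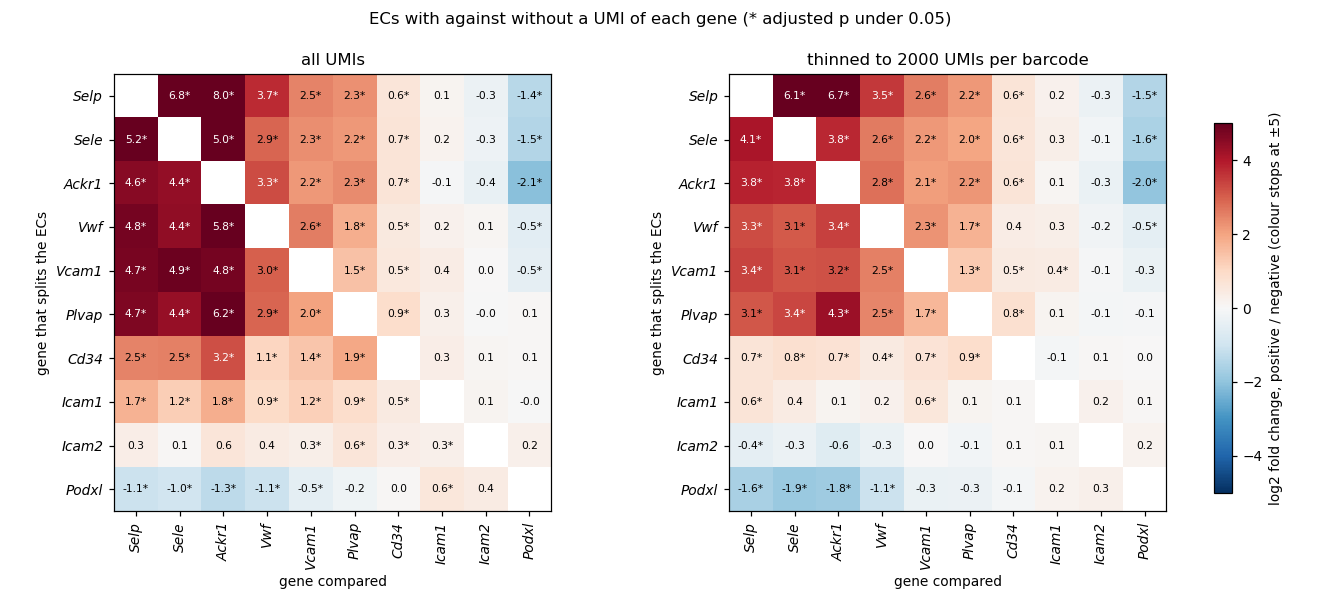
Log2 fold change between ECs with and without a UMI of the gene named at the left, for each gene named below, from all UMIs and after thinning to 2000 UMIs per barcode (asterisks, adjusted p under 0.05, edgeR, n = 3 libraries). The block of large positive values for Selp, Sele, Ackr1, Vwf, Vcam1 and Plvap is in both panels, while values in the Cd34 and Icam1 rows are smaller at equal depth for Selp, Sele and Ackr1, and Selp in the Icam2 row goes from 0.32 to -0.44.

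What else marked Selp-positive ECs was read from gene lists. Of 9 venous genes that are not among the 10, 7 were higher and 0 lower in Selp-positive ECs, with a median log2 fold change of 1.97 beside -0.03 over all genes. Lrg1, a secreted glycoprotein of venous endothelium, was at 997, 2060 and 758 CPM against 30.4, 156 and 45.7 (4.46 ± 0.24, adjusted p = 4.00e-05). Apoe and the cytokine receptor subunit Il6st followed with 2.40 ± 0.30 and 2.34 ± 0.16 (adjusted p = 0.00131 and 9.87e-05). Of 11 arterial genes 10 were lower and 0 higher (median -2.11), among them the gap junction gene Gja5 (-2.14 ± 0.33, adjusted p = 0.00343), the Notch target Hey1 (-2.57 ± 0.23, adjusted p = 0.000335) and Sema3g (-2.50 ± 0.20, adjusted p = 0.000206). Of 9 capillary genes 5 were lower and 1 higher: Rgcc (-2.23 ± 0.27) and Gpihbp1 (-1.86 ± 0.24), which anchors lipoprotein lipase, were lower (adjusted p = 0.00122 and 0.00141), and Kit was higher (1.53 ± 0.26, adjusted p = 0.00469). At equal depth the counts were 7 higher of 9 venous genes, 8 lower of 9 arterial genes and 7 lower of 9 capillary genes. The venous list shares Selp, Vcam1, Vwf and Ackr1 with the 10 genes and the capillary list Plvap, and these were left out of the counts.

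The arterial list was also counted in other divisions, beside the shares of all genes given for each above. Of the 11 arterial genes, Vcam1-positive ECs had 6 higher and 3 lower and Vwf-positive ECs 5 higher and 1 lower, or 3 and 1 of 10 and 4 and 2 of 11 at equal depth. Sele-positive and Ackr1-positive ECs each had 0 higher and 10 lower, or 7 and 4 lower of 9 at equal depth. Podxl-positive ECs had 10 of 11 arterial genes higher and 0 lower (5 and 0 of 10 at equal depth) and 5 of 9 venous genes lower and 0 higher (3 and 0 of 8). Differences between these divisions were not tested.

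The other genes of the adhesion pathway were read by step, beside 13.2% of all genes higher and 9.64% lower in Selp-positive ECs (11.9% and 8.67% at equal depth), and the steps were not tested against each other. In the list of capture ligands and the enzymes that decorate them, 5 of 9 tested were higher and 1 lower in Selp-positive ECs (4 and 1 of 7 at equal depth). Glycam1, a secreted mucin of high endothelial venules of lymph nodes, was at 5155, 59.3 and 274 CPM against 38.7, 0.530 and 0.2497 (7.46 ± 0.36, adjusted p = 2.46e-05). It was high in the female library, where the fewest ECs were Selp-positive. St3gal4, a sialyltransferase that helps make selectin ligands, was higher (2.48 ± 0.14, adjusted p = 4.81e-05), as was Gcnt1 (3.22 ± 0.30, adjusted p = 0.000357), which builds their core branches.

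Of 13 junction and diapedesis genes 5 were higher and 0 lower in Selp-positive ECs (3 and 0 at equal depth). Nt5e, the ectoenzyme CD73 that makes adenosine at the vessel surface, rose most in this list, from 0.891, 8.75 and 10.2 CPM to 42.0, 266 and 163 (4.84 ± 0.22, adjusted p = 2.46e-05). Among 10 chemokines and scavengers 4 were higher and 3 lower at both depths, with Cxcl10 higher (1.53 ± 0.12, adjusted p = 0.000206) and Cxcl12 lower, at 538, 183 and 329 CPM against 1327, 1113 and 1219 (-1.73 ± 0.22, adjusted p = 0.00144). Of 12 cytokine and NF-kB genes 6 were higher and 0 lower (5 and 0 at equal depth), led by Il1r1, the receptor of interleukin-1 (3.14 ± 0.19, adjusted p = 6.05e-05), Il6st and Nfkb1 (1.22 ± 0.12, adjusted p = 0.000546).

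Of 7 tested Weibel-Palade body genes other than Selp and Vwf, 4 were higher in Selp-positive ECs and 0 lower, and the counts were the same at equal depth. They included Angpt2, which the granule releases with Vwf (2.37 ± 0.41, adjusted p = 0.00531), the granule tetraspanin Cd63 (1.99 ± 0.34, adjusted p = 0.00499) and Rab27a (1.57 ± 0.18, adjusted p = 0.000834). Of 7 adaptors that tie sialomucins to the cytoskeleton, 5 were lower and 1 higher (2 and 1 at equal depth), as Podxl was lower: Clic5 had -2.30 ± 0.26 and Slc9a3r2 -1.60 ± 0.16 (adjusted p = 0.000834 and 0.000477). Among markers of other cells, 5 of 6 FB markers and 5 of 8 hematopoietic markers were lower and 0 higher (1 of 3 and 0 of 3 lower at equal depth), and 0 of 4 erythroid markers were called in either direction by edgeR (at equal depth, 2 of 3 lower). Of 6 TEC markers 2 were higher and 0 lower (2 of 2 higher at equal depth), among them the MHC class II gene H2-Aa (1.56 ± 0.25, adjusted p = 0.00434). Of 5 lymphatic markers 2 were tested. The regulator Prox1 was higher (adjusted p = 0.00991), at 19.7, 7.93 and 3.94 CPM against 2.16, 0 and 1.498, and was not tested at equal depth, and the receptor Flt4 was lower (-1.19 ± 0.33, adjusted p = 0.0378, or -1.42 at equal depth). Of 6 mural markers 1 was higher, Tagln (4.03 ± 0.30, adjusted p = 0.000150), and 1 lower, Rgs5 (-1.12 ± 0.22, adjusted p = 0.00970), which did not pass at equal depth (adjusted p = 0.101).

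Across all genes, the largest positive differences in Selp-positive ECs, among genes with 20 or more UMIs in ECs of every library and the same direction in 3 of 3, were those of Fgf23, Ackr1, Glycam1, F5, Serpina1e and Sele. Fgf23, a phosphate-regulating hormone best known from bone, was at 41.1, 479 and 452 CPM against 0.509, 0.795 and 2.25 (8.10 ± 0.33, adjusted p = 2.46e-05, or 6.23 at equal depth). F5, coagulation factor V, was at 89.5, 270.2 and 280 against 1.53, 1.06 and 0.999 (7.32 ± 0.35, adjusted p = 2.46e-05), and its gene starts 1812 bases beyond the end of Selp on the same strand. The next were Olr1, a scavenger receptor for oxidized lipoprotein (6.54), Nxph1 (6.41), Bst1 (5.90), Kcnh1 (5.82), Ptafr, the receptor of platelet-activating factor (5.62), and the cytokine Csf3 (5.49), all with adjusted p of 0.000187 or less.
Lower in Selp-positive ECs were Car3 (-3.99), Crispld1 (-3.65), Lrrc3b (-3.57), Dntt, a thymocyte enzyme (-3.55), Nebl (-3.52) and Esm1, a tip cell marker (-3.49), with adjusted p of 0.00356 or less.

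The libraries were compared last, as values without a test, since each group is 1 library. In ECs, 6 of the 10 genes were over 2-fold lower in the Foxn1Lin female library than in the Foxn1Lin male (4.17% of 13689 genes were) and 0 were over 2-fold higher (13.8%). The 6 were Selp, with a ratio of 0.153 (95% interval for counting error 0.148 to 0.159), Ackr1 (0.141), Sele (0.193), Vcam1 (0.236), Vwf (0.252) and Plvap (0.280). Icam2 (1.92) and Podxl (1.38) were on the other side of 1, and Cd34 (0.713) and Icam1 (0.638) between.

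Against the wild type, the female library was again over 2-fold lower for 6 genes (7.03% of 13908 genes), with Selp at 0.153 and Plvap at 0.360, and over 2-fold higher for 1 (13.4%), Icam2 at 2.09. The 2 male libraries, which differ in genotype, were within 2-fold of each other for all 10 genes, from 0.578 for Podxl to 1.69 for Ackr1, while 3.13% of 12841 genes were over 2-fold higher in the Foxn1Lin male and 7.16% lower. Selp had a ratio of 0.995 (0.974 to 1.02) between them. The median log2 ratio of all genes was 0.13 for the Foxn1Lin female over the Foxn1Lin male library, and TMM scaling moved it to -0.04 and left the counts of genes at 6 and 0. Sex, library, depth and cell recovery cannot be told apart in the female library, nor can genotype in its comparison with the wild type. Its ECs also had the lowest summed level of the 9 venous genes that are not among the 10, 2148 CPM against 4760 and 3029, the highest of the 9 such capillary genes, 7900 CPM against 6686 and 5358, and the highest of the 5 lymphatic markers, 107 CPM against 37.5 and 45.3, and whether the mix of EC kinds had a part in the ratios was not tested.

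**Figure D5:**
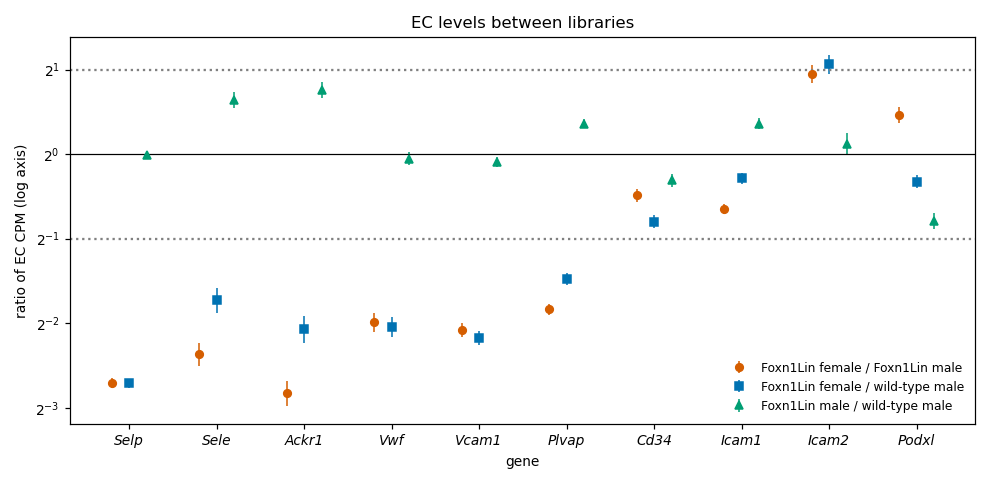
Ratio of EC CPM between libraries for each gene (log axis), with 95% intervals that cover counting error only; dotted lines mark 2-fold. The female over male ratios of Selp, Sele, Ackr1, Vwf, Vcam1 and Plvap lie between 0.141 and 0.360, and all ratios of the Foxn1Lin male over the wild type lie between 0.578 and 1.69.

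The profile of each gene over the 12 sums of class and library was also set beside that of 10710 other genes, by Pearson's r of log2(CPM + 1), as a description. The 12 sums share 3 libraries and 4 classes, so most EC genes score high. Selp was most like Sox18 (r = 0.996), an endothelial transcription factor, Gm39822 (0.980) and Lrg1 (0.977). Icam2 was most like Egfl7 (0.995), Uaca (0.994) and Ushbp1 (0.994), and Podxl like Tal1 (0.991), Ccm2l (0.990) and Gata2 (0.990). Genes with levels outside ECs had other neighbours: Cd34 was most like Selenop (0.988) and Ltbp4 (0.985), Sele like Emp1 (0.976), Icam1 like Slfn2 (0.968) and Vcam1 like Gabpb1 (0.944). Vwf, Plvap and Ackr1 were most like Mrtfb (0.988), Csf3 (0.976) and Gpr1 (0.966).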

How the data were processed

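Stromal cells depleted of CD45+ cells were profiled with 10x 3′ chemistry in 3 libraries. The authors deposited UMI counts per gene and barcode, made per the file headers with Cell Ranger 7.0.1 on mm10 (GRCm38), as called and unfiltered matrices. Neither was normalized, and reads in introns were counted. The percent of reads that were duplicates (sequencing saturation: 52.1%, 81.0% and 72.8%) is as the authors deposited it from Cell Ranger. Barcodes with both 1000 or fewer genes and 20% or more mitochondrial UMIs were removed (138, 149 and 222). Those with the highest Scrublet scores, up to the 3.9% multiplet rate of the labels, were also removed, since the automatic threshold marked 1, 12 and 5 barcodes. ECs had at least 2 Pecam1 plus Cdh5 UMIs and no Epcam or Pdgfra UMI. TECs had at least 2 Epcam UMIs, FBs at least 2 Pdgfra UMIs and mural cells at least 5 Rgs5 plus Acta2 UMIs, and 368, 127 and 322 barcodes in more than 1 gate were left out. The filters on quality and Scrublet score kept 8146, 3281 and 5046 barcodes, before any gate. The counts of barcodes in more than 1 gate are over all called barcodes.

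CPM are counts per 1000000 UMIs of the summed class. Summed counts were tested with edgeR 4.0.16 in R 4.3.3 (quasi-likelihood test, TMM, filterByExpr, library as block, Benjamini-Hochberg over all genes tested, threshold 0.05), and the code was tested on simulated data. For ECs against FBs, 25.8% of simulated 2-fold and 64.7% of 4-fold changes were recovered. In the Selp division these shares were 67.7% and 94.7%. The library is the replicate and cells are not. Both classes of each comparison came from the same pool of mice, which is the pairing that the block uses. Shares have Clopper-Pearson and CPM exact Poisson 95% intervals, which cover counting error only. DESeq2 1.42.0, other gates, other depths, no filter, no block and leaving out each library were alternatives. Beyond the 10 genes, text names up to 4 genes of each list with the largest change past the threshold in 3 of 3 libraries, and the 12 highest and 6 lowest in the Selp division. The genes and lists were chosen with earlier results of these data known. Results for some genes of these lists are not reported here.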

Additional observations from a re-analysis of the deposited data

Results flagged for a closer look

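Some differences between classes or groups of ECs had opposite directions in the female library and a male one. Whether the libraries differ in them was not tested, since each is the only one of its group. Values are log2 ratios of CPM within a library.

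Vcam1 in ECs over TECs was -0.56 in the Foxn1Lin female library, 1.56 in the Foxn1Lin male and 1.73 in the wild type. Over FBs the Vcam1 ratio was -0.46, 1.24 and 0.86 in the same order. Cd34 in ECs over FBs was -0.70, -0.16 and 0.19.

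Icam1 was higher in positive ECs of the female library and lower in those of both male libraries when ECs were divided by Selp (0.26, -0.26 and -0.15) or by Ackr1 (0.21, -0.47 and -0.46). For Sele the Icam1 ratios were 0.24 in the female and -0.27 in the Foxn1Lin male library, and for Vwf 0.35 in the female library and -0.24 in the wild type, with the Foxn1Lin male at 711 CPM in Vwf-positive against 700.4 in Vwf-negative ECs. The edgeR fits over the 3 libraries did not call Icam1 in these 4 divisions, with all UMIs or at equal depth. In the Vcam1 division Icam1 was higher in positive ECs of 3 of 3 libraries (0.35, adjusted p = 0.0651, or 0.41, adjusted p = 0.0474, at equal depth).

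Levels of Plvap and Podxl also differed in direction. Plvap in Podxl-positive over Podxl-negative ECs was 0.54, -0.52 and -0.67. Podxl in Plvap-positive over Plvap-negative ECs was 0.27 in the female library and -0.46 in the Foxn1Lin male, with the wild type at 364 CPM in Plvap-positive against 394 in Plvap-negative ECs. Sele in Icam2-positive over Icam2-negative ECs was 0.47 in the female library and -0.28 in the wild type.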

How the results depend on the processing

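Counts are of the 10 genes called in comparisons of classes, or of the other 9 in divisions of ECs. Leaving out each library in turn gave 9 to 10 genes for ECs against TECs, 5 to 9 against FBs and 9 to 10 against mural cells, 4 to 5 for TECs against FBs, 1 to 8 for TECs and 2 to 7 for FBs against mural cells. The divisions gave 6 to 7 (Selp), 7 to 7 (Sele), 5 to 8 (Vcam1), 6 to 7 (Icam1), 0 to 6 (Icam2), 7 to 7 (Ackr1), 5 to 7 (Vwf), 6 to 6 (Plvap), 0 to 7 (Podxl) and 5 to 6 (Cd34). The lowest counts came without the Foxn1Lin male library for TECs and FBs against mural cells and for Podxl, without either male library for ECs against FBs, and without the female or the wild-type library for Icam2. Without the replicate block the counts were 4 for Vcam1 and for Vwf and 0 for Icam1, Icam2, Podxl and Cd34, from 7, 7, 7, 4, 6 and 6. Pairing within libraries comes from the design. At equal depth Icam1 had 2 and Icam2 1, and Icam2 had 7 with literal gates, 1 with the stricter EC gate and 8 without the filter. The FB against mural count was 4 with doublets kept, and the TEC against mural count 2 with barcodes holding Pecam1 or Cdh5 left out, an alternative chosen after seeing the data. Over all genes these counts were 4915 (from 4943) and 7982 (from 8232). Pairs under 1/1.5 in every library numbered 1 with literal gates, 1 at 1000 UMIs and 0 without thinning.

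Reversed were Icam2 in FBs against mural cells without EC markers (0.14, from -1.82) and, in the Icam2 division at equal depth, Selp (-0.44, from 0.32) and Plvap (-0.14, from 0.59). The cause was not tested.

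Counts over all genes moved by over 1.5 times as well. Without the block they fell from 2646 to 711 for Selp, 2877 to 895 for Sele, 1681 to 129 for Vcam1, 2692 to 972 for Ackr1, 2095 to 208 for Vwf, 1801 to 151 for Plvap and 4943 to 3126 for FBs against mural cells, and to 0 for Icam1, Icam2, Podxl and Cd34. At equal depth, where fewer genes are tested, they were 1603, 1315, 986, 1284, 1170 and 975 for Selp, Sele, Vcam1, Ackr1, Vwf and Plvap, and 264, 136, 208 and 250 for Icam1, Icam2, Podxl and Cd34, from 1101, 1437, 1028 and 738. With no filter they were 1931 for Icam1, 2310 for Podxl and 1545 for Cd34. DESeq2 gave 497 for Icam2. Literal gates gave 445 for Cd34, 2508 for TECs against mural cells (from 8232) and 8012 for FBs against mural cells. Without the Foxn1Lin male or the wild-type library, the counts were 4229 and 4378 for ECs against FBs (from 7056), 3323 and 3432 for ECs against mural cells (from 6499), 4823 and 5377 for TECs and 2172 and 2253 for FBs against mural cells, and, for the divisions, 1250 and 1343 (Selp), 1713 and 1826 (Sele), 928 and 830 (Vcam1), 230 and 152 (Icam1), 1435 and 1500 (Ackr1) and 977 and 1081 (Plvap). Podxl had 2 and Cd34 122 without the Foxn1Lin male library, and Vwf 664 and Icam2 575 without the wild type. Without the female library Icam2 had 228, while Icam1 rose to 1662 and Cd34 to 1569.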

Other observations

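Outside the Selp division, the genes with the largest differences recurred between divisions. Glycam1 was among the 3 highest in ECs divided by Vcam1 (5.89 ± 0.25), Ackr1 (8.04 ± 0.22), Vwf (6.88 ± 0.25), Plvap (6.03 ± 0.28), Cd34 (4.91 ± 0.27), Icam1 (4.02 ± 0.41) and Icam2 (2.75 ± 0.64), all log2 fold changes with SE and adjusted p of 0.0235 or less by edgeR. At equal depth Glycam1 was 2.39 in the Cd34 division, and in the Icam1 (0.69) and Icam2 (-0.63) divisions it did not pass (adjusted p = 0.520 and 0.112). In ECs as a whole Glycam1 was at 676 CPM in the Foxn1Lin female library, 27.3 in the Foxn1Lin male and 118 in the wild type, an order of libraries unlike that of Selp.

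Podxl-positive ECs had other companions. The 3 highest were Gkn3 (3.46 ± 0.63, adjusted p = 0.0220), the collagen Col13a1 (3.37 ± 0.33, adjusted p = 0.00604) and the arterial connexin Gja5 (2.89 ± 0.55, adjusted p = 0.0269). Col13a1 was at 18.9, 39.5 and 32.3 CPM in Podxl-positive ECs against 2.58, 5.11 and 0.876 in Podxl-negative ones, and at equal depth its difference was 1.84.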
